A study of Mus musculus with 6 samples.

Results

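Retinoid storage and signalling in the liver is described here through 9 genes: Lrat, Rbp4, Ttr, Rdh11, Rdh16, Adh1, Aldh1a1, Aldh1a7 and Cyp26a1. They were chosen by name for their roles in vitamin A handling, with earlier results of these data known. All 9 were found among 18429 genes with a count and among 21362 genes in a table of FPKM. The study asked how loss of METTL14, a subunit of the enzyme complex that writes N6-methyladenosine (m6A) on RNA, changes the liver transcriptome of obese mice. Bulk RNA-seq was performed on 6 livers of Mettl14f/f males, 3 per group. Mettl14f/f mice carry floxed Mettl14 alleles in every cell, and the controls carry them too. The mice were placed on a high fat diet (HFD) at 8 weeks of age and after 10 weeks received AAV8-TBG-Cre or AAV8-TBG-GFP through the tail vein. Livers were taken 8 weeks later. In this viral vector (AAV, adeno-associated virus) the TBG promoter, that of thyroxine-binding globulin, is active in hepatocytes, so that the floxed alleles are recombined there by Cre, while stellate, endothelial and immune cells of the same liver keep them. The labels name the AAV8-TBG-GFP livers WT and the AAV8-TBG-Cre livers METTL14 KO.

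Vitamin A reaches the liver as retinyl esters. Hepatocytes hydrolyse the esters and either export retinol on the plasma carrier RBP4, held in a complex with transthyretin, or pass it to stellate cells, where LRAT esterifies it again for storage. Alcohol and short-chain dehydrogenases convert retinol to retinaldehyde, retinaldehyde dehydrogenases oxidise it to retinoic acid, the ligand of the RAR nuclear receptors, and CYP26 enzymes hydroxylate retinoic acid for removal.

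Sequences near the starts of Cyp26a1 and the Aldh1a pair are shown because retinoic acid is known to induce the former and because the latter share fragments. RefSeq promoter windows of assembly GRCm38.p6, which is the mm10 build of the submitters' processing notes, matched 8 of the 9 members, with 11 windows in all. In the 250 bases before each start, direct repeats of a retinoic acid receptor half-site with a spacer of 5 bases were searched on both strands. The half-site searched was the general one, AGGTCA or a variant of it, namely AGTTCA, then also GGGTCA and, with both changes, GGTTCA. Such a repeat is the element described for retinoic acid induced genes, Rarb and Cyp26a1 among them, so the search locates known elements and is no independent finding. Among 32851 windows of all genes, 29 (0.0883%) held one, and among the members Cyp26a1 alone did, on the strand opposite to the gene, 32 to 16 bases before the start that the RefSeq window is counted from (chr19:37697776-37697792, forward strand, half-sites in capitals). That start, base 37697808, lies 70 bases inside the gene's RefSeq span, which begins at base 37697738, so the repeat is upstream of the one start and within the span as a whole:

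Cyp26a1: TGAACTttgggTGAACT

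The same search over 50 members and pathway genes with a window found 1 other gene, the receptor gene Rarb, with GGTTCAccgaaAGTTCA placed 53 to 37 bases before its window's start. A single half-site occurred in 38.6% of all windows. Repeats with spacers of 1 or 2 bases were in no window of the members, against 0.164% and 0.174% of all windows. A match describes letters in a window and is no measurement of binding.

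Aldh1a1 and Aldh1a7 are neighbouring genes of chromosome 19, with 49489 bases between them. The 250 bases before the inner start of Aldh1a1 (chr19:20601718-20601967, forward strand) and those before Aldh1a7 (chr19:20727557-20727806, reverse strand) were 66% identical in a global alignment, and share an unbroken run of 65 bases (capitals), 94 to 30 bases before each start:

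Aldh1a1: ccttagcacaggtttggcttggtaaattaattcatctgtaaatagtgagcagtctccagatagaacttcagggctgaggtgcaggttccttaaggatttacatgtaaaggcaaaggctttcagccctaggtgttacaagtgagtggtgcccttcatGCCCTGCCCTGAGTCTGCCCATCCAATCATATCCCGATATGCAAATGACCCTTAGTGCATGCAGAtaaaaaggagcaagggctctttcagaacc
Aldh1a7: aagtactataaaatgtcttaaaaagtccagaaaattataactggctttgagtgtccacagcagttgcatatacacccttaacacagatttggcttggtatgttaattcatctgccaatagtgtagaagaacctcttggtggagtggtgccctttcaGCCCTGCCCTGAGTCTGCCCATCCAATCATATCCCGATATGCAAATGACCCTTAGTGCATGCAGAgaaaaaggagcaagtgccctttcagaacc

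The window before the outer start of Aldh1a1 was 50.9% identical to that of Aldh1a7, with no shared run above 5 bases. The coding sequences of the pair were 91.6% identical over 1506 bases, with identical stretches of up to 100 bases. Fragments of such stretches are divided between the genes by estimation, and the expected counts of both genes were not whole numbers in any of the 6 libraries.

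Library depth lay between 20356466 and 21010527 expected counts, an expected count being an estimated number of fragments per transcript. CPM below are expected counts scaled to library size with TMM factors, and FPKM are the deposited values per transcript length, which alone are used to compare levels between genes. A gene is called at the study's threshold, an unadjusted p under 0.05 in edgeR's quasi-likelihood test with a fold change of at least 1.2, and adjusted p-values cover all 13431 tested genes. Over these genes 12% were called higher and 8.41% lower, and the counts called in each list below stand beside these shares. The labels do not say that the livers of a group came from separate litters or days, and the p-values measure the spread between these mice only. Library names are short for control replicates 1 and 2 and for AAV8-TBG-Cre replicate 1, and long for the other 3 libraries, for a reason not given in the sources used here. For Mettl14 itself 124, 126 and 111 fragments were counted in controls and 104, 131 and 101 in AAV8-TBG-Cre livers. Its CPM was 6.18 ± 0.326 (SD) against 5.07 ± 0.275, without overlap, its log2 fold change was -0.29 (SE 0.15, edgeR adjusted p = 0.336), and its FPKM overlapped between groups. Fragments were not assigned to the floxed part of the gene here, and whole-liver RNA holds Mettl14 of cells outside the vector's reach. The part of either in these Mettl14 values was not tested. By immunoblot the paper reported a substantial decrease of METTL14 protein in liver after AAV8-TBG-Cre, at an earlier time than these livers were taken. Markers of other cells differed in these bulk samples: the summed CPM of 8 cholangiocyte genes was 72.2 to 128 in AAV8-TBG-GFP and 306 to 574 in AAV8-TBG-Cre livers (8 of 8 called higher), that of 8 genes of activated stellate cells 83.3 to 163 and 302 to 680 (5 called higher), and that of 8 Kupffer cell and macrophage genes 172 to 199 and 242 to 327 (5 called higher). Spp1 was the largest part of the cholangiocyte sum, at 38.0 to 89.0 CPM in AAV8-TBG-GFP and 219 to 457 CPM in AAV8-TBG-Cre livers. Col1a1, Col1a2 and Col3a1 were the largest parts of the activated stellate cell sum. Acta2, the 1 gene of those 8 with a negative log2 fold change (-0.37), was not called. Marco, the 1 Kupffer cell and macrophage gene with a negative log2 fold change (-0.75), was not called either. The 10 hepatocyte genes summed to 108300 to 137100 and 99900 to 125900 CPM (2 called higher), and the 8 endothelial genes to 171 to 279 and 174 to 212 (1 called lower). Alb was the largest part of the hepatocyte sum, at 62440 to 80780 CPM in AAV8-TBG-GFP and 54610 to 67850 CPM in AAV8-TBG-Cre livers. All 8 endothelial genes had a negative log2 fold change, with a median of -0.31. Fewer cells of a type and less RNA per cell cannot be told apart in bulk liver, and the part of these cells in the results that follow was not tested.

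The members spanned more than 3 orders of magnitude in level. By mean FPKM in AAV8-TBG-GFP livers, Ttr came first (4668 ± 381, SD), before Rbp4 (3027 ± 142), Adh1 (1526 ± 234) and Aldh1a1 (808 ± 106). Aldh1a7 (98.9 ± 12.7), Rdh16 (29.7 ± 5.06) and Rdh11 (13.8 ± 5.60) followed, and Lrat (1.56 ± 0.572) and Cyp26a1 (1.29 ± 0.732) were last. In this group the FPKM of Lrat and Cyp26a1 overlapped, and no other neighbours in the order did. In AAV8-TBG-Cre livers Ttr (3525 ± 641) and Rbp4 (3254 ± 544) overlapped as well. Together the 9 genes took 1.34, 1.23 and 1.19% of all counts in the 3 controls and 1.09, 1.04 and 0.952% in the 3 AAV8-TBG-Cre livers.

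Ttr, Aldh1a1 and Aldh1a7 were called lower in AAV8-TBG-Cre livers and no member was called higher. These 3 of 9 stand beside 8.41% of all tested genes called lower and 12% called higher. The set was chosen with earlier results of these data known, so the shares are no test of it. No member passed an adjusted p of 0.05, against 0.931% of all genes, and 2811 genes had an unadjusted p under 0.05. DESeq2 passed 2 members at that adjusted p, and edgeR passed 2 when AAV8-TBG-Cre replicate 1 was left out. Left-out mice moved the count of members called lower between 1 (without AAV8-TBG-GFP replicate 1 or AAV8-TBG-Cre replicate 2 or 3) and 5 (without AAV8-TBG-Cre replicate 1). The same 3 members had CPM that did not overlap between groups, a pattern found in 27% of all genes. The log2 fold change was negative for 8 of the 9, with a median of -0.42 against -0.0062 over all tested genes.

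**Figure D1:**
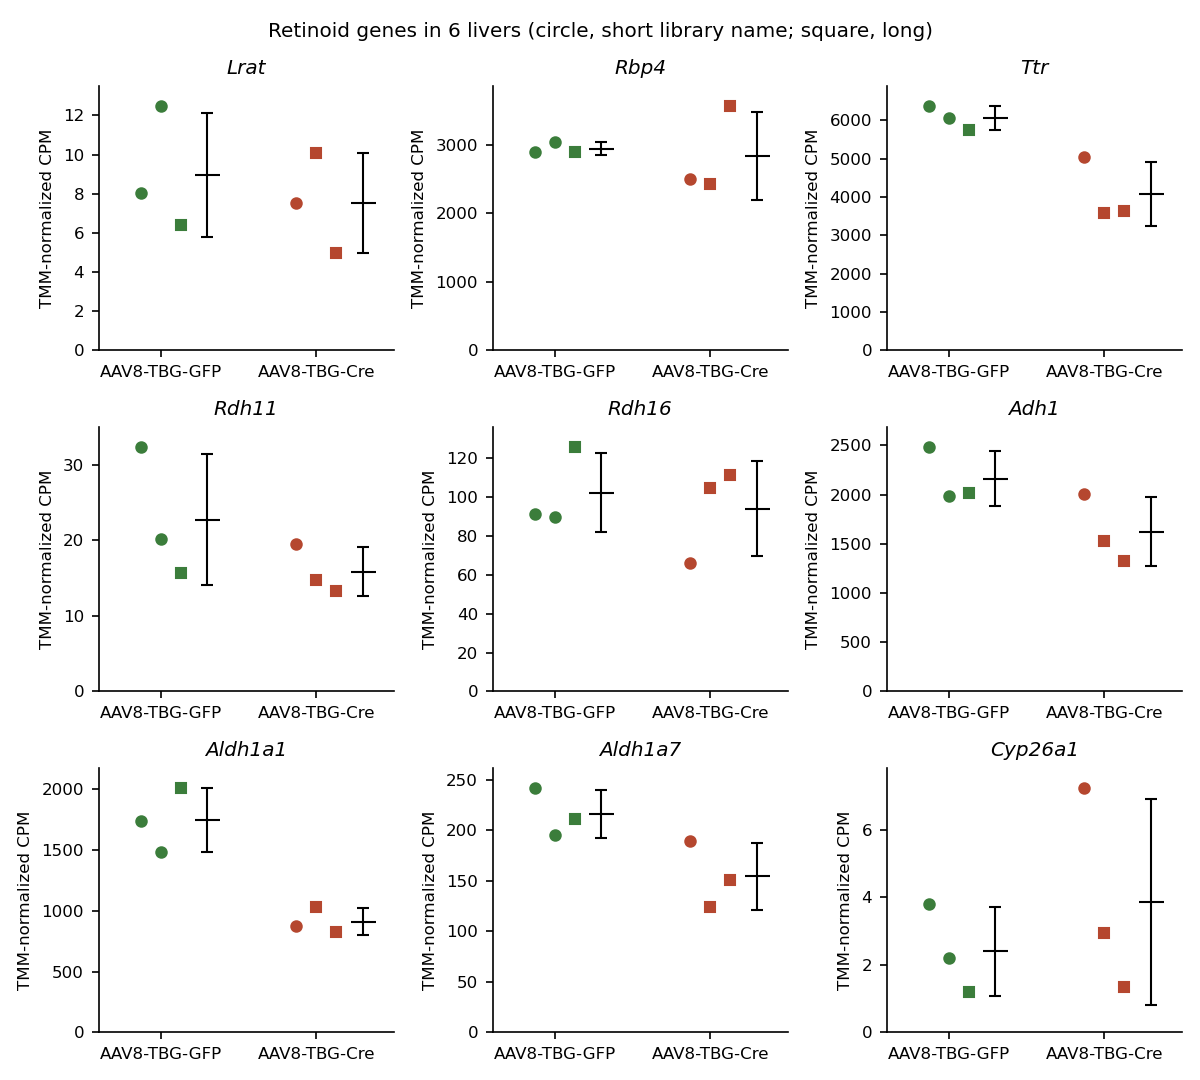
TMM-normalized CPM (y axis, from 0) of the 9 members in each liver of the AAV8-TBG-GFP and AAV8-TBG-Cre groups (x axis); points are livers, circles and squares are libraries with short and long names, and bars are mean ± SD of 3 livers. Ttr, Aldh1a1 and Aldh1a7 do not overlap between groups, and Cyp26a1 in AAV8-TBG-Cre spans 1.35 to 7.25 CPM.

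Lrat, the acyltransferase that makes retinyl esters for storage in stellate cells (NCBI gene 79235, chr3:82892582-82903974), had 8.03, 12.5 and 6.39 CPM in the AAV8-TBG-GFP livers and 7.54, 10.1 and 4.96 CPM in the AAV8-TBG-Cre livers. The lowest liver was an AAV8-TBG-Cre liver and the highest an AAV8-TBG-GFP liver, and the groups overlapped over most of their range. The log2 fold change was -0.25 (SE 0.32, edgeR adjusted p = 0.705). Without AAV8-TBG-GFP replicate 2, it was 0.063. Of 14 genes of quiescent stellate cells, the cells that hold most Lrat, 3 were called higher and 2 lower, and their summed CPM was 317 to 505 in AAV8-TBG-GFP and 324 to 563 in AAV8-TBG-Cre livers.

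Lrat was 1 of the 12 genes listed for esterification and ester hydrolysis, and all 11 others were tested. Of these, 1 rose and 3 fell, beside 12% of all tested genes called higher and 8.41% called lower. Ces1f, a carboxylesterase of the hepatocyte endoplasmic reticulum, had 369, 355 and 403 CPM in AAV8-TBG-GFP and 198, 120 and 125 CPM in AAV8-TBG-Cre livers. Ces1e and Ces1d, paralogs of the same gene cluster, fell too. How fragments shared by these paralogs were divided was not examined. The log2 fold change of Ces1f was -1.35 (SE 0.21, edgeR adjusted p = 0.0396), that of Ces1e -0.88 (SE 0.20, adjusted p = 0.0719) and that of Ces1d -1.02 (SE 0.35, adjusted p = 0.158). Lpl, lipoprotein lipase, which releases retinol from chylomicron esters outside the liver, rose from 16.9, 12.7 and 26.3 CPM to 81.8, 181 and 90.4 CPM, a log2 fold change of 2.66 (SE 0.38, adjusted p = 0.0363). Dgat2, the most abundant of the set at a mean of 270 FPKM and an acyltransferase of triglyceride synthesis, was not called (log2 fold change -0.54, SE 0.28, adjusted p = 0.320).

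Of the plasma carriers, Ttr was called and Rbp4 was not, and their ratio overlapped between groups. Rbp4, the retinol-binding protein secreted by hepatocytes (gene 19662, chr19:38116620-38125321), had 2890, 3044 and 2886 CPM in AAV8-TBG-GFP livers and 2501, 2429 and 3568 CPM in AAV8-TBG-Cre livers. In CPM, AAV8-TBG-Cre replicates 1 and 2 were below all controls and replicate 3 above all of them. In FPKM, replicate 2 (3123) lay within the control range of 2876 to 3158. The log2 fold change of Rbp4 was -0.05 (SE 0.21, edgeR adjusted p = 0.911), and it became 0.026 when AAV8-TBG-Cre replicate 1 was left out and 0.042 when replicate 2 was. Rbp4 alone among the members had 2 transcripts in the files. The leading one took 98.2 ± 0.155% (SD) of the gene's count in AAV8-TBG-GFP and 98.1 ± 0.212% in AAV8-TBG-Cre livers (exact two-sided permutation test, p = 0.7).

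Ttr, transthyretin, which carries thyroxine and holds RBP4 in plasma (gene 22139), had 6382, 6051 and 5737 CPM in the AAV8-TBG-GFP livers. In AAV8-TBG-Cre livers it had 5043, 3580 and 3628 CPM. Every AAV8-TBG-Cre liver was below every control, in CPM and in FPKM, and replicate 1 was the nearest to them. Expression fell to 67.4% of the control level, a log2 fold change of -0.57 (SE 0.22, edgeR adjusted p = 0.194). An exact two-sided permutation test gave p = 0.1, the smallest that 3 against 3 allows. The call was lost without AAV8-TBG-GFP replicate 1 (-0.54) or 2 (-0.57), without AAV8-TBG-Cre replicate 2 (-0.49) or 3 (-0.49), and on FPKM.

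The ratio of Ttr to Rbp4 FPKM within a library does not depend on how libraries are scaled. It was 1.65, 1.49 and 1.49 in AAV8-TBG-GFP and 1.51, 1.10 and 0.760 in AAV8-TBG-Cre livers. AAV8-TBG-Cre replicate 1 lay among the controls, and the exact two-sided permutation test gave p = 0.3 (adjusted over 5 ratios, p = 0.3). The 5 ratios were chosen after their values were seen.

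Other binding and transport genes were mostly at low levels, and 3 of 8 were tested. Fabp5, a fatty acid binding protein that also carries retinoic acid, rose by a log2 fold change of 1.59 (SE 0.37, edgeR adjusted p = 0.0793). Stra6l, which encodes RBPR2, the RBP4 receptor of the liver, was the most abundant of these genes (mean 36.3 FPKM) and was not called (log2 fold change -0.17, SE 0.15).

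**Figure D2:**
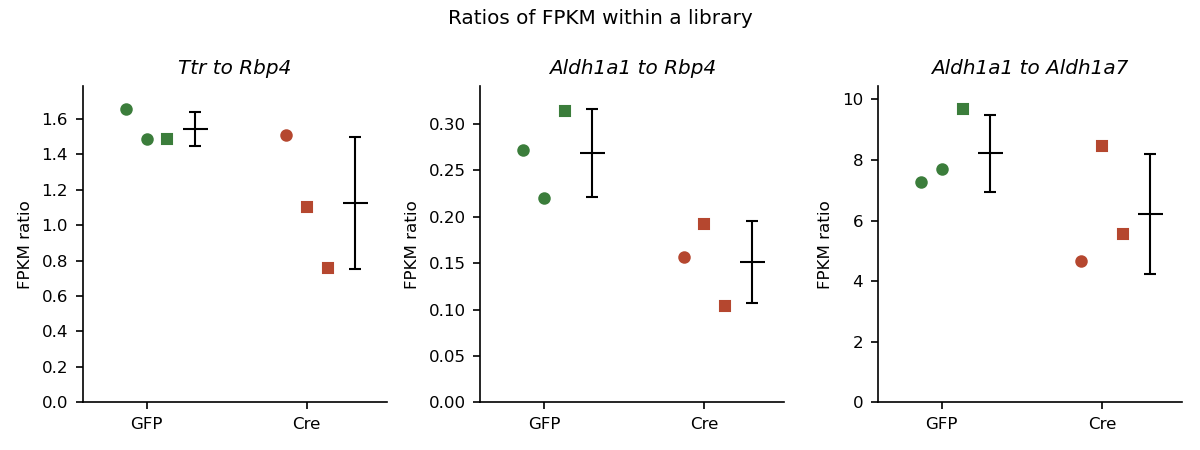
Ratio of FPKM of gene pairs within each library (y axes, from 0) for the AAV8-TBG-GFP and AAV8-TBG-Cre groups; points are livers, circles and squares are short and long library names, and bars are mean ± SD of 3 livers. Aldh1a1 to Rbp4 separates the groups, while Ttr to Rbp4 and Aldh1a1 to Aldh1a7 overlap. The ratios were chosen after their values were seen.

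None of the 3 members that convert retinol and retinaldehyde into each other was called. Adh1, the abundant cytosolic alcohol dehydrogenase that also oxidises retinol (gene 11522, chr3:138277585-138290698), had 2487, 1981 and 2017 CPM in AAV8-TBG-GFP and 2009, 1532 and 1322 CPM in AAV8-TBG-Cre livers. AAV8-TBG-Cre replicate 1 lay within the control range and the other 2 below it. On the log2 scale the change was -0.42 (SE 0.21, edgeR adjusted p = 0.314). Adh1 passed the threshold without AAV8-TBG-Cre replicate 1, with a log2 fold change of -0.60.

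Rdh11, a microsomal reductase that returns retinaldehyde to retinol (gene 17252, chr12:79174233-79191855), had 32.4, 20.2 and 15.7 CPM in the controls and 19.6, 14.7 and 13.3 CPM in AAV8-TBG-Cre livers. Control replicate 1 stood above all other livers. Its log2 fold change was -0.52 (SE 0.27, edgeR adjusted p = 0.325) and -0.18 without that liver. It passed the threshold without AAV8-TBG-GFP replicate 3 (-0.74) and without AAV8-TBG-Cre replicate 1 (-0.70).

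Rdh16, a hepatic retinol dehydrogenase (gene 19683, chr10:127801090-127815846), had 91.3, 89.6 and 126 CPM in AAV8-TBG-GFP and 66.0, 105 and 111 CPM in AAV8-TBG-Cre livers. The groups overlapped, and the log2 fold change was -0.12 (SE 0.22, edgeR adjusted p = 0.800). In each group the short-named libraries were lower than the long-named ones. A fit that included the name form gave -0.34 on the log2 scale (edgeR adjusted p = 0.144), past the call threshold. The coding sequence of Rdh16 is 96.3% identical to that of Rdh9 and 91.5% to that of Rdh16f2, and the 3 genes summed gave 0.14. The value of Rdh16 alone is therefore uncertain. Its FPKM relative to Rdh9 was 0.926, 1.10 and 0.772 in controls and 0.596, 0.415 and 0.843 in AAV8-TBG-Cre livers, with overlap (exact permutation test, p = 0.2).

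Of 15 other tested genes of retinol and retinaldehyde interconversion, 2 fell and none rose, beside 8.41% of all tested genes called lower and 12% called higher. Rdh10, the main retinol dehydrogenase of embryonic retinoic acid synthesis, fell from 29.4, 28.1 and 27.2 CPM to 22.5, 20 and 19.0 CPM (log2 fold change -0.46, SE 0.10, edgeR adjusted p = 0.0725). Dhrs7, a short-chain dehydrogenase, fell by 0.70 on the log2 scale (SE 0.16, adjusted p = 0.0770). Rdh7 was the most abundant of this set (mean 481 FPKM) and was not called (log2 fold change -0.29, SE 0.17).

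Aldh1a1 had the log2 fold change of greatest size among the members in the edgeR fit without covariates on all 6 livers, while that of Cyp26a1 was greater with the name form included and without AAV8-TBG-GFP replicate 1 or AAV8-TBG-Cre replicate 3. It encodes an abundant hepatic retinaldehyde dehydrogenase that also oxidises other aldehydes (gene 11668, chr19:20492583-20643463). The AAV8-TBG-GFP livers had 1741, 1486 and 2014 CPM and the AAV8-TBG-Cre livers 873, 1034 and 823 CPM. The highest AAV8-TBG-Cre liver lay well below the lowest control, in FPKM also. Expression fell to 52.1% of the control level, a log2 fold change of -0.94 (SE 0.18, edgeR adjusted p = 0.0599). All 17 alternatives kept the call, between -1.05 and -0.77, with adjusted p-values from 2.83e-06 in DESeq2 to 0.197. Between short-named libraries the log2 ratio of mean CPM was -0.89 and between long-named ones -1.12. Relative to Rbp4 in the same library, Aldh1a1 FPKM was 0.271, 0.220 and 0.314 in controls and 0.157, 0.192 and 0.104 in AAV8-TBG-Cre livers, without overlap (exact permutation test, p = 0.1, adjusted over 5 ratios p = 0.25). This ratio too was chosen after its values were seen, so its p-values are descriptive.

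Aldh1a7, the neighbouring paralog (gene 26358, chr19:20692953-20727556), has high similarity to Aldh1a1 and little retinaldehyde activity. It had 243, 195 and 211 CPM in AAV8-TBG-GFP and 190, 124 and 151 CPM in AAV8-TBG-Cre livers. The groups did not overlap in CPM, but in FPKM AAV8-TBG-Cre replicate 1 (93.8) exceeded 2 controls (89.9 and 93.4). The gene fell to 71.5% of the control level (log2 fold change -0.48, SE 0.18, edgeR adjusted p = 0.181), and 10 of 16 alternatives kept this call. It was lost without AAV8-TBG-GFP replicate 1 (-0.40), without AAV8-TBG-Cre replicate 2 (-0.35) or 3 (-0.47), and on FPKM. The counts of both genes summed gave a log2 fold change of -0.88, past the call threshold.

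The ratio of Aldh1a1 to Aldh1a7 FPKM was 7.28, 7.72 and 9.67 in AAV8-TBG-GFP and 4.67, 8.46 and 5.55 in AAV8-TBG-Cre livers. AAV8-TBG-Cre replicate 2 lay among the controls, and a difference between the falls of the paralogs was not shown (exact permutation test, p = 0.3). Among 4 other tested genes of retinaldehyde oxidation and carotene cleavage, 1 fell. This was Aox1, aldehyde oxidase, the most abundant of them (mean 20.3 FPKM), which had 119, 107 and 108 CPM in controls and 60.8, 74.7 and 75.0 CPM in AAV8-TBG-Cre livers (log2 fold change -0.67, SE 0.12, edgeR adjusted p = 0.0548).

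Cyp26a1, the hydroxylase that clears retinoic acid and whose repeat is printed above (gene 13082, chr19:37697738-37701536), was the 1 member with a positive log2 fold change. It was counted at 75, 43 and 23 fragments in AAV8-TBG-GFP and 152, 72 and 28 in AAV8-TBG-Cre livers, or 3.81, 2.19 and 1.204 CPM and 7.25, 2.96 and 1.35 CPM. AAV8-TBG-Cre replicate 1 was the highest of the 6 livers and a control the lowest. The log2 fold change was 0.68 (SE 0.63, edgeR adjusted p = 0.586), not distinguishable from the spread between mice. Without AAV8-TBG-Cre replicate 1 it was -0.15. In each group the short-named libraries were higher than the long-named ones. Within the short names the log2 ratio of mean CPM was 1.27 and within the long names 0.84, and a fit that included the name form gave 1.09 on the log2 scale (edgeR adjusted p = 0.176), past the call threshold.

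Other genes around retinoic acid were called in both directions, beside 12% of all tested genes called higher and 8.41% called lower. None of Cyp2s1, Rarg, Rxrg and Rarres1 passed an adjusted p of 0.05 in the main edgeR fit. Of 3 other tested hydroxylases, Cyp2s1 was called, at 0.203 to 0.262 CPM in controls and 0.811 to 1.77 CPM in AAV8-TBG-Cre livers (log2 fold change 2.26, SE 0.46, edgeR adjusted p = 0.0619). Its counts were near the floor, with 4, 5 and 5 fragments in controls and 17, 43 and 19 in AAV8-TBG-Cre livers. On log2(FPKM + 1) without a filter its change was 0.44. Cyp2c39, the most abundant of these hydroxylases at a mean of 2.41 FPKM, was not called (log2 fold change -0.48, SE 0.35). Of 10 receptor and cofactor genes, Rarg rose (0.77, SE 0.23, adjusted p = 0.129) and Rxrg fell (-0.70, SE 0.24, adjusted p = 0.158). The call of Rxrg was lost without AAV8-TBG-GFP replicate 3 (-0.43) and on FPKM (-0.49 to -0.39). Rxra, the main RXR of liver (mean 124 FPKM), had a log2 fold change of -0.10 (SE 0.14). Among the 7 other tested genes that retinoic acid is known to induce, Rarres1 fell (-0.73, SE 0.28, adjusted p = 0.203). Its groups overlapped, and its call was lost without AAV8-TBG-GFP replicate 2 (-0.67) or 3 (-0.61), without AAV8-TBG-Cre replicate 1 (-0.54) or 2 (-0.62), and on FPKM (-0.60 to -0.59). Rarb, the other gene with the repeat, had 3.10, 3.42 and 3.35 CPM in controls and 4.10, 4.11 and 5.10 CPM in AAV8-TBG-Cre livers (log2 fold change 0.43, SE 0.19, edgeR adjusted p = 0.247), without overlap but without a call, and Rarres2, the most abundant of the set (mean 616 FPKM), was not called (0.25, SE 0.16). Over the whole list of 60 other retinoid genes, 49 were tested, 5 rose and 8 fell, 3 at an adjusted p under 0.05, Lpl and Ces1f among them. Over all tested genes the shares were 12% higher, 8.41% lower and 0.931% at an adjusted p. Of these, 5 of 49 higher is not above its share, while 8 of 49 lower and 3 of 49 at an adjusted p are above theirs. None of the 49 passed an adjusted p of 0.05 when AAV8-TBG-GFP replicate 1 or 2 or AAV8-TBG-Cre replicate 2 or 3 was left out, and 11 did without AAV8-TBG-Cre replicate 1. The median log2 fold change of the 49 was -0.10. This list too was chosen with earlier results of these data known, so the shares are no test of it.

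**Figure D3:**
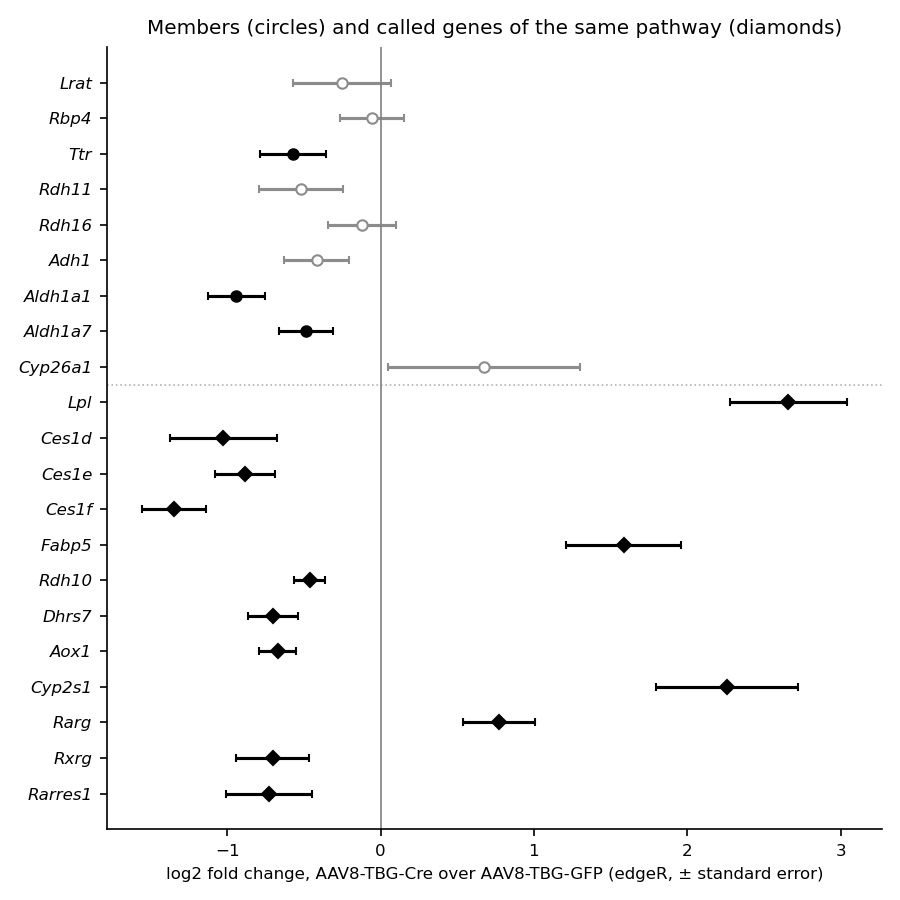
Log2 fold change (x axis, AAV8-TBG-Cre over AAV8-TBG-GFP, edgeR, ± standard error) of the 9 members (circles, above the dotted line) and of 12 called genes of the same pathway (diamonds); filled black symbols are called. Ttr, Aldh1a1 and Aldh1a7 lie left of 0, and the called pathway genes run from -1.35 (Ces1f) to 2.66 (Lpl).

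The fits on FPKM with limma differ from edgeR on counts in unit, scaling, pseudocount, filter and test together. In them the median log2 fold change of the genes shifted upward by 0.15, while single genes such as Cyp26a1 (0.44 against 0.68) moved the other way. Over all genes 1880 were then called higher and 365 lower, and 1922 and 738 with upper quartile scaling of the counts, against 1618 and 1129 with TMM. Rbp4 was then 0.092 and Rdh16 0.029 on the log2(FPKM + 1) scale, Ttr -0.42 and Aldh1a7 -0.33 without a call, and Aldh1a1 -0.77 with a call.

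**Figure D4:**
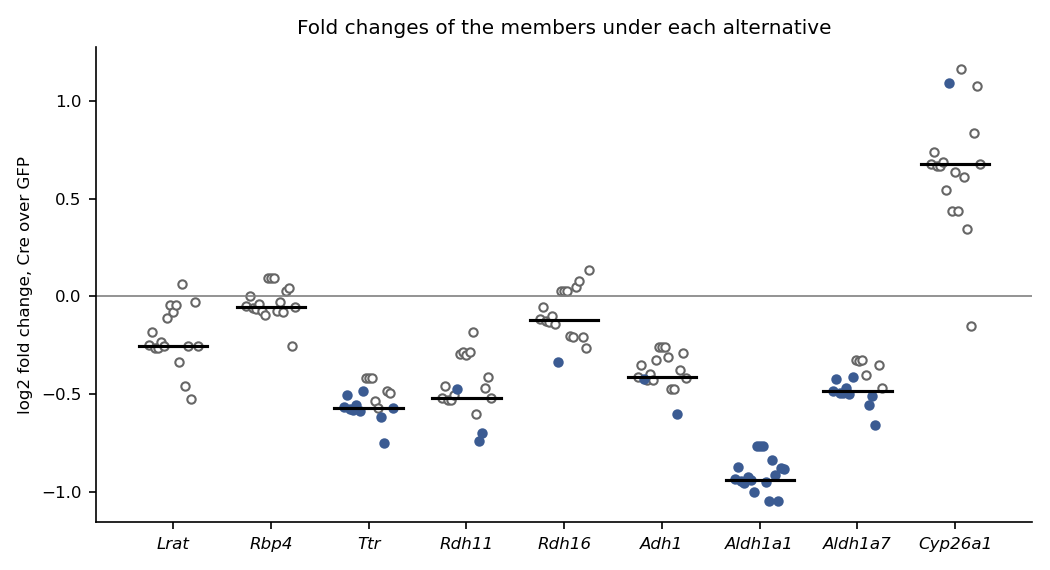
Log2 fold change of each member (y axis, AAV8-TBG-Cre over AAV8-TBG-GFP) in the main edgeR fit (black line) and under each alternative normalization, filter, test or left-out mouse (points, filled where p is under 0.05). Aldh1a1 is filled throughout, between -1.05 and -0.77, and Cyp26a1 spreads from -0.15 to 1.17.

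The genes nearest to each member in profile were those with the smallest root mean square difference in log2 CPM over the 6 libraries, each gene centred on its own mean. For Aldh1a1 these were Nr1i3 (0.09), which encodes the nuclear receptor CAR, Wdr93 (0.13) and Slc45a3 (0.13). Those for Aldh1a7 were Rdh18-ps, Tfpi2 and Acsm1 (0.04 to 0.06), and those for Ttr were Slc17a4, Pecr and Galm (all 0.05). Cyp26a1 had no near match: Tcf19, Chaf1b and Fam198a differed from it by 0.32 to 0.36, against a spread of Cyp26a1 itself of 0.85. Adh1 was nearest to Rbbp9, Abca3 and Tmem241, Rdh11 to Olfr1034, Idi1 and Pmvk, Rdh16 to Acadm, Ept1 and Zrsr1, Rbp4 to Prrc1, Gabpb1 and Tmem125, and Lrat to Unc5a, Slc4a8 and Fam78a.

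The motif GGACT, one form of the sequence in which METTL14-containing complexes methylate adenosine, was counted, per gene, in the GENCODE vM1 transcript with the longest coding sequence. It occurred in 8 of the 9 members, as in 82.1% of 22611 protein-coding genes. Aldh1a1 had 2 copies (0.974 per kilobase), Ttr 1 copy (0.820 per kilobase) and Aldh1a7 no copy, against a median of 1.02 per kilobase over all genes. Lrat had the most, 6 copies in 5351 bases. No m6A measurement was part of these data, and a copy of the motif is no record of methylation.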

How the data were processed

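The authors deposited, for each of 6 livers, an expected count per RefSeq transcript (an estimate that need not be whole, without normalization) and FPKM. The authors also deposited a table of FPKM per gene, scaled by transcript length and mapped fragments. The submitters' processing notes list HISAT2, Bowtie2, RSEM and mm10, whereas STAR, HTSeq and DESeq2 stand in the paper's methods, and which tools made these files was not settled. An expected count divides fragments shared by similar transcripts, which bears on Aldh1a1, Aldh1a7 and Rdh16. It may also bear on the Ces1 paralogs, whose identity was not computed and whose counts were not summed.

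Expected counts were summed per NCBI gene ID and rounded. Genes that passed filterByExpr (13431) entered edgeR 4.0.16 (R 4.3.3), whose quasi-likelihood test was run with TMM scaling and no factor other than the vector. Standard errors were derived from the quasi-F statistic. Adjusted p-values are Benjamini-Hochberg values over all tested genes. The steps were tested on simulated counts, where edgeR recovered 85.4% of 198 changed genes at an adjusted p under 0.05. Of its calls, 6.11% were false. The planted log2 changes were larger than that of any member in the main fit. The simulation therefore does not show how well changes of the members' size are found. DESeq2 1.42.0, limma 3.58.1 on log2 FPKM (pseudocount 1 or 0.1, FPKM no lower than 0.5 in at least 3 libraries, or no filter), other scalings and filters, a fold threshold of 1.5, covariates, summed paralogs and leaving out each mouse were alternatives. Total counts, 20356466 to 21010527 per library, leave counting error largest, among the members, for Cyp26a1 and Lrat. Replicates differed by more than counting error, with a chi-square of at least 24.9 per gene.

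All members, every called gene of the pathway list but 1, the most abundant gene of each role group and the 3 nearest profiles per member are named; Rarb was added after its values were seen. The members and lists were chosen with earlier results of these data known. Promoter windows came from RefSeq (GRCm38.p6), and transcripts from GENCODE vM1 (NCBIM37) for motif counts and identities only. That gene, and 1 of the 5 ratios, are not reported here, though counts over the list include it. No sample was left out.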

Additional observations from a re-analysis of the deposited data

How the results depend on the processing

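Aldh1a1 kept its call and direction under each of its 17 alternatives, and the 13 called pathway genes kept their direction in 218 of 218 alternative values and their side of the threshold in 206. Leaving out 1 mouse at a time gave log2 fold changes of -0.53 to 0.063 for Lrat, -0.26 to 0.042 for Rbp4, -0.75 to -0.49 for Ttr, -1.05 to -0.84 for Aldh1a1, -0.66 to -0.35 for Aldh1a7, -0.15 to 1.17 for Cyp26a1, -0.74 to -0.18 for Rdh11, -0.26 to 0.080 for Rdh16 (0.046 without AAV8-TBG-GFP replicate 3, 0.080 without AAV8-TBG-Cre replicate 1) and -0.60 to -0.29 for Adh1. For Rbp4 it was 0.026 without AAV8-TBG-Cre replicate 1. The members called were then 1 to 5 lower and 0 to 0 higher, with 0 to 2 at an adjusted p under 0.05. The other pathway genes called were 5 to 7 higher and 7 to 11 lower, with 0 to 11 adjusted, and all genes called were 1106 to 2018 higher and 735 to 1712 lower, with 0 (without AAV8-TBG-GFP replicate 2 or AAV8-TBG-Cre replicate 2) to 928 (without AAV8-TBG-Cre replicate 1) adjusted.

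With limma on FPKM, at pseudocounts of 1 and 0.1 and at 1 without a filter, Rbp4 was 0.092 and Rdh16 0.029 in each fit, Ttr was -0.42 and Aldh1a7 -0.33 without a call, 1 member was called lower, 8 pathway genes were called higher and 0 adjusted. Of all genes, 365, 376 and 364 were then lower and 22, 27 and 9 adjusted. Without the filter 5 pathway genes were lower and Ces1d lost its call (-0.98). Upper quartile scaling gave Rbp4 0.0033, 738 genes lower, 66 adjusted and 1 pathway gene adjusted. DESeq2 called Adh1 (-0.42) and 2 members, 10 pathway genes and 1157 genes at an adjusted p. No filter on counts gave 1, 5 and 375 of these, and at least 10 counts in every library gave 76 genes. The covariate of the name form called Cyp26a1 (1.09) and Rdh16 (-0.34), with 1 member called higher, 1 member adjusted, 5 pathway genes adjusted and 214 genes adjusted. A fold of 1.5 left 1 member and 407 genes lower. Summing paralogs gave 0.14 for Rdh16. The cause of these changes was not tested.

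Pairing of the samples by replicate number was not shown: deviations of same-numbered libraries from their group means correlated at 0.00925, -0.263 and 0.209. With 3 libraries per group these correlations depend on each other, so pairing cannot be settled from them. With the replicate block, Rdh11 passed the threshold at -0.48, 0 pathway genes and 7 genes in all were called at an adjusted p, and no other member changed its call. Not every library correlated best with its own number.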
